A study of Mus musculus with 13 samples.

Results

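The SOX transcription factors described here are Sox2, Sox4, Sox5, Sox6, Sox7, Sox9, Sox11, Sox13, Sox17 and Sox18, 10 of the 32544 gene symbols in the count table of a mouse lung study. They were chosen by the strong fall of Sox11 in hyperoxia in these same libraries, and the rest of the set was drawn up with that fall known. The difference of Sox11 between the groups is therefore given as a description with no test. The adjusted p-values of the other members come from the same comparison and are given as descriptions too. The libraries came from lungs of 13 wild-type C57BL/6J male mice, 7 weeks old when purchased, with no transgene or deletion. In the normoxia group 7 mice breathed 21% oxygen for 5 days, and in the hyperoxia group 6 mice breathed 80% oxygen for 5 days. The lungs were perfused before collection, and RNA of the whole tissue was read from its 3′ ends (Quant-seq), so that each library mixes all lung cell types.

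SOX proteins bind DNA through a high mobility group (HMG) box related to that of SRY, and bend it. They are sorted into groups by the likeness of that box. Sox2 (SOXB1) marks airway epithelium and its basal progenitors in the lung. Sox4 and Sox11 (SOXC) act in progenitor cells of many tissues during development. Sox5, Sox6 and Sox13 (SOXD) have no activation domain of their own and work as partners of other factors, best known in cartilage. Sox9 (SOXE) drives cartilage formation and marks the distal epithelial tips of the developing lung. Sox7, Sox17 and Sox18 (SOXF) act in endothelial cells, where they take part in artery and lymphatic vessel development. Sox7, Sox17 and Sox18 are called the endothelial members below, and the other 7 the epithelial and mesenchymal members.

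Total counts ran from 1607111 to 3387736 in normoxia (median 2968462) and from 2029006 to 4540288 in hyperoxia (median 3200654.5). A count of 3, taken as the floor of detection, corresponded to 0.656 to 1.84 CPM (counts scaled to a library of equal size by the TMM method), and such floors cover counting error only. Hyperoxia replicate 1 stood apart, with a mean correlation of 0.779 to the other libraries across genes, where every other library reached 0.886 to 0.919. It is kept in all values, and where leaving it out changed whether a gene passed, that is said beside the gene or its list. The library names carry letters that fall into a set from B to M (5 normoxia, 3 hyperoxia) and a set from O to S (2 normoxia, 3 hyperoxia), and the labels do not say what the letters stand for. Markers of lung tissue were abundant in normoxia. Sftpc, the surfactant protein of alveolar type II cells, stood at 9637 ± 2850 CPM (SD, n = 7), Scgb1a1 of club cells at 33862 ± 12543 CPM and Pecam1 of endothelium at 2773 ± 862 CPM.

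In normoxia the 10 genes spanned a wide range of levels. In CPM, which is not scaled by gene length, Sox4 was highest at 235 ± 18.1 (SD, n = 7) and Sox11 second at 171 ± 22.6. Sox17 followed at 66.6 ± 16.9 CPM, Sox7 at 37.4 ± 7.55 CPM, Sox5 at 34.0 ± 3.74 CPM and Sox2 at 24.3 ± 4.17 CPM. Sox6, Sox13, Sox9 and Sox18 stood under 10 CPM on average. The libraries of Sox4 and Sox11, of Sox11 and Sox17, and of Sox2 and Sox6 did not overlap, while every other pair of neighbours in this order overlapped. Divided by the length of the longest coding transcript, the mean of Sox4 was 49.1 CPM per kb, and Sox11 and Sox17 stood side by side at 20.6 and 20.6 CPM per kb. Sox2 reached 11.8 and Sox7 11.3 CPM per kb, Sox5 4.69, Sox18 2.85, Sox13 2.33, Sox9 1.62 and Sox6 1.02 CPM per kb. Since Quant-seq counts 3′ ends, the level per length understates genes with long transcripts.

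**Figure D1:**
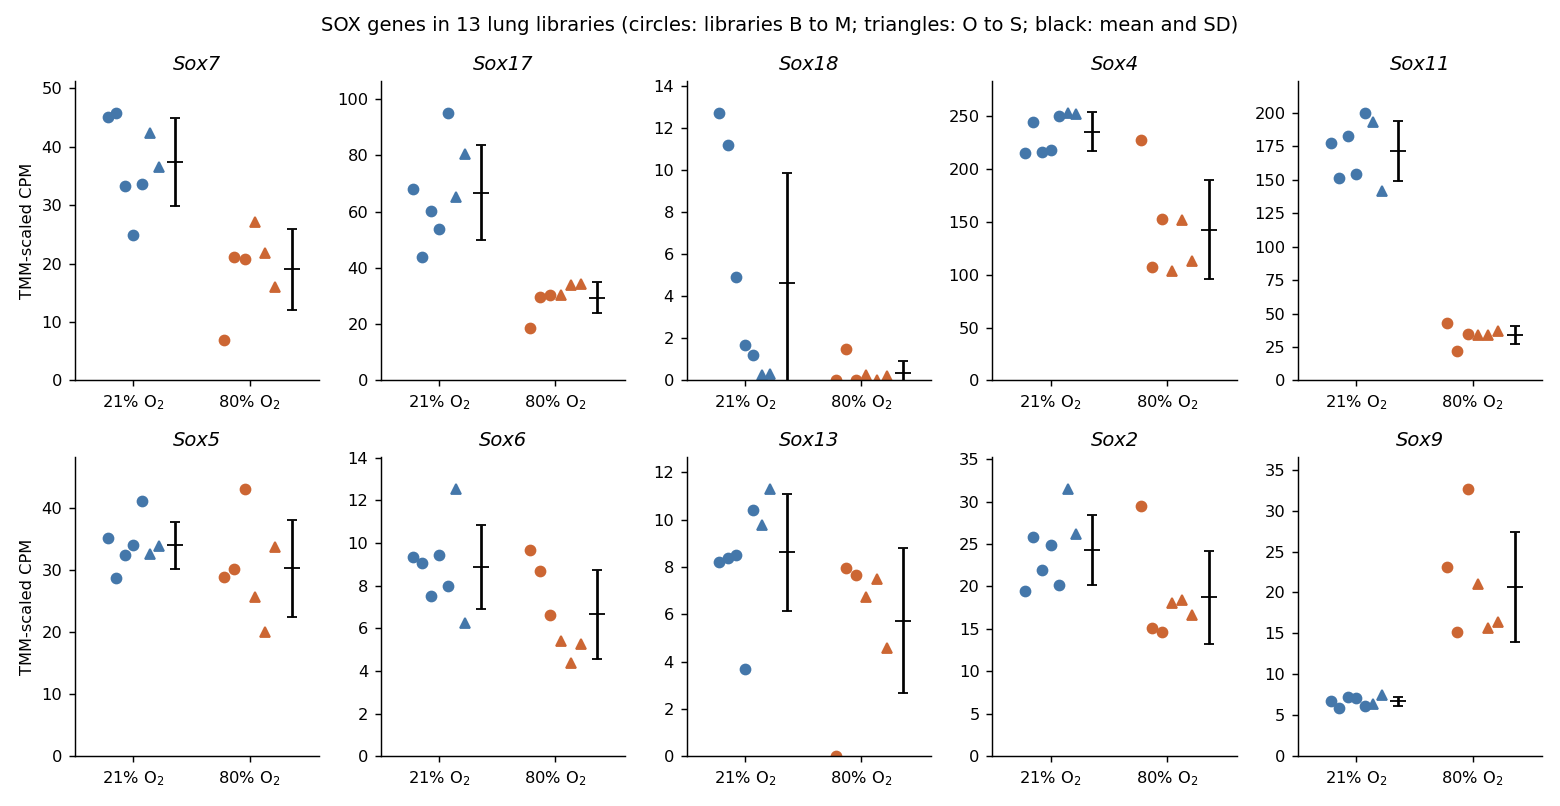
TMM-scaled CPM of the 10 SOX genes in each of the 7 normoxia and 6 hyperoxia libraries, with the mean and SD of each group; circles are libraries B to M, triangles are libraries O to S, and the lower SD bar of Sox18 is cut at 0. Sox11 lies between 141 and 200 CPM in normoxia and between 21.9 and 42.9 CPM in hyperoxia, and Sox9 is the gene whose hyperoxia libraries all lie above the normoxia range.

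Of the 8 tested members other than Sox11, 3 were lower in hyperoxia at an adjusted p under 0.05 (Sox4, Sox7 and Sox17), 1 was higher (Sox9) and 4 did not pass (Sox2, Sox5, Sox6 and Sox13). The edgeR quasi-likelihood test was fitted over 12496 genes, of which 10.8% were lower and 11.8% higher. Sox18 was left out by the filter on low counts and is described apart. Without hyperoxia replicate 1, 4 of these 8 were lower, with Sox2 added, and 1 was higher. The normoxia and hyperoxia libraries did not overlap for Sox11 and Sox17, both lower, against 5.23% of all genes tested, and for Sox9, which was higher, against 5.60%. Nothing is read from these counts, because the members were selected on this contrast. The median log2 fold change (hyperoxia minus normoxia) was -0.55 over the 9 tested members, Sox11 included, and -0.03 over all genes tested. It was -1.06 for Sox7 and Sox17, -0.44 for the 7 epithelial and mesenchymal members and -0.42 for those 7 without Sox11.

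**Figure D2:**
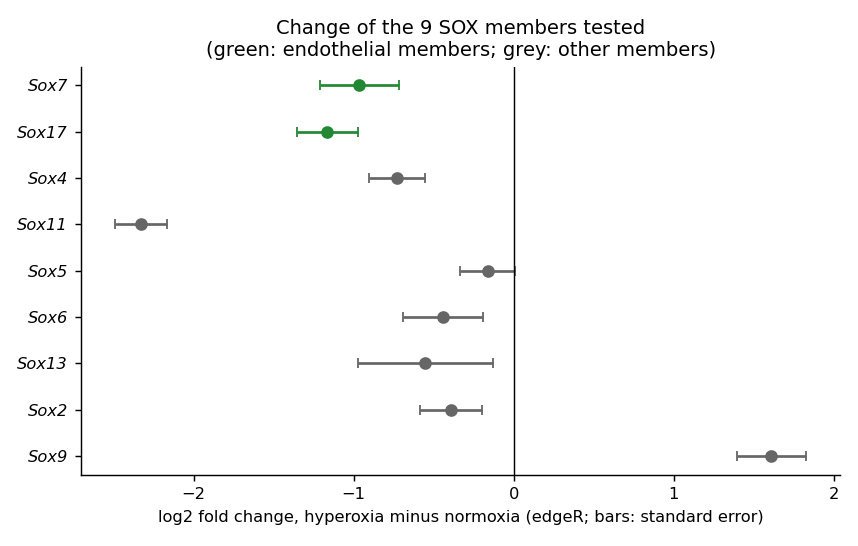
Log2 fold change (hyperoxia minus normoxia) of the 9 tested SOX genes, given as a description; points are edgeR estimates, bars are standard errors, green marks the endothelial members and grey the others. Sox11 lies lowest at -2.33 and Sox9 is the 1 point above 0, at 1.61.

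Sox11 and Sox4 are the SOXC genes among the members, and each has a single exon. In GRCm38 (mm10), Sox11 (ENSMUSG00000063632) is annotated by GENCODE on chromosome 12 from 27334264 to 27342574 on the minus strand, and no other gene overlaps it. Sox4 (ENSMUSG00000076431) lies on chromosome 13 from 28948919 to 28953713, also on the minus strand, with the non-coding Gm26735 on the opposite strand. The promoters of this pair are shown because both genes were lower in hyperoxia and by unlike amounts. The sequences are from RefSeq (GRCm38.p6), run from 250 bases before to 50 bases after the annotated start, and are written 5′ to 3′ as the table gives them. The start of the GENCODE transcript was found in the Sox4 window on this strand, and was not in the Sox11 window. Of 12500 minus-strand windows of the table, 10304 held the first 20 bases of a GENCODE transcript of their gene as written and 1 held them reversed. The windows are chr12:27342669-27342968 for Sox11 and chr13:28953650-28953949 for Sox4, both on the minus strand. RefSeq starts Sox11 upstream of the GENCODE gene end. Capitals mark matches on either strand to the letters CCAAT, the site of the factor NF-Y, or to the GC box, spelled GGGCGG.
Sox11: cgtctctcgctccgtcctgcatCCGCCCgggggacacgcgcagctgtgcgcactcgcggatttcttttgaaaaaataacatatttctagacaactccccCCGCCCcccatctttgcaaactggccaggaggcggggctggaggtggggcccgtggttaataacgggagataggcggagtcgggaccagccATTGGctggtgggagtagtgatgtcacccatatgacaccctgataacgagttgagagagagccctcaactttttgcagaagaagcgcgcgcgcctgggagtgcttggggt
Sox4: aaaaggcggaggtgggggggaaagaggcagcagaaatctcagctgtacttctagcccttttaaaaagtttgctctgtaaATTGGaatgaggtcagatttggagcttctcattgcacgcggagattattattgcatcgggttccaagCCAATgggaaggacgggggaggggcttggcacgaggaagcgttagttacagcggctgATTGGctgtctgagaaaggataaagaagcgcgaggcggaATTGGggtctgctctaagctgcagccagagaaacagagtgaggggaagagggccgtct

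Searched on both strands, the Sox11 window held 1 match to CCAAT and 2 to GGGCGG, and the Sox4 window held 4 to CCAAT and 0 to GGGCGG. Of the 32851 RefSeq promoter windows of this length, 37.4% held CCAAT and 35.7% held GGGCGG, so that each is common. The GC content was 58.7% with 21 CpG in Sox11 and 52.0% with 12 CpG in Sox4, where the median window had 52.7% and 7 CpG. Both windows had 0 matches to a SOX motif spelled AACAAT, which 10.7% of windows held. They also had 0 matches to the TATA box, spelled TATAAA and held by 13.6% of windows. The core of the hypoxia response element, spelled ACGTG and held by 19.6% of windows, had 0 matches. So did the antioxidant response element, spelled TGACNNNGC and held by 12.4%. No matches of different motifs overlapped. A match is a run of letters and not a measured binding site.

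Sox11 had a lowest value of 141, a median of 177 and a highest value of 200 CPM in the 7 normoxia libraries. In the 6 hyperoxia libraries it had a lowest value of 21.9, a median of 34.4 and a highest value of 42.9 CPM. The 6 hyperoxia libraries all lay below the 7 normoxia libraries, and hyperoxia replicate 1 was the highest among the 6. The mean was 5.03-fold lower in hyperoxia, a log2 fold change of -2.33 (SE 0.16). Within the letter sets the difference in mean log2 CPM was -2.40 for B to M and -2.22 for O to S. In bulk tissue, fewer cells of a type and less RNA per cell cannot be told apart, here and for each member below.

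Sox4, the closest relative of Sox11 in this set, had a lowest value of 215, a median of 244 and a highest value of 253 CPM in normoxia. Its hyperoxia libraries had a lowest value of 104, a median of 132 and a highest value of 227 CPM. In hyperoxia, 5 of 6 libraries were below every normoxia library, and hyperoxia replicate 1 at 227 CPM was inside the normoxia range. Sox4 fell by 0.73 on the log2 scale (SE 0.18, edgeR adjusted p = 0.00728), a 1.65-fold lower mean. Its log2 fold change was -0.89 without hyperoxia replicate 1 (edgeR adjusted p = 1.3e-04). The difference was -0.56 in libraries B to M and -1.05 in libraries O to S.

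The pair therefore differed in size. The log2 CPM of Sox11 minus that of Sox4 was -0.46 ± 0.22 (SD, n = 7) in normoxia and -2.01 ± 0.34 (SD, n = 6) in hyperoxia. In normoxia the highest library of this difference was -0.24 and the lowest -0.83, and in hyperoxia it ran from -2.39 to -1.59 without overlap. It carries no test, because it holds the value that chose the members. Among 3 genes reported as SOXC targets, Tead2, a partner of the Hippo co-activators, was the 1 abundant enough to test. Its level was 7.65 ± 3.03 CPM in the normoxia libraries and 3.00 ± 1.39 CPM in the hyperoxia libraries, and its log2 fold change was -1.28 (SE 0.37, edgeR adjusted p = 0.0200). Tubb3 and Dcx, targets in neurons, did not pass the filter on low counts.

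Sox17 was the most abundant endothelial member. It is annotated on chromosome 1 from 4490931 to 4497354 on the minus strand, in 4 exons, with the non-coding Gm37587 on the opposite strand. In normoxia its lowest value was 44.0, its median 65.2 and its highest value 94.96 CPM. In hyperoxia its lowest value was 18.8, its median 30.3 and its highest value 34.1 CPM. All 6 hyperoxia libraries were below all 7 normoxia libraries, and the lowest was hyperoxia replicate 1. Sox17 fell by 1.17 on the log2 scale (SE 0.19, edgeR adjusted p = 4.1e-04), a 2.24-fold lower mean. The log2 fold change was -1.05 without hyperoxia replicate 1, and the difference was -1.26 in libraries B to M and -1.13 in libraries O to S.

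Sox7 lies on chromosome 14 from 63943673 to 63950732 on the plus strand, in 2 exons. Its normoxia libraries had a lowest value of 24.9, a median of 36.6 and a highest value of 45.8 CPM. Its hyperoxia libraries had a lowest value of 6.97, a median of 21.0 and a highest value of 27.2 CPM. In hyperoxia, 5 of 6 libraries were below every normoxia library, and the lowest was again hyperoxia replicate 1. Sox7 fell by 0.96 on the log2 scale (SE 0.24, edgeR adjusted p = 0.00971), a 1.95-fold lower mean. Without hyperoxia replicate 1 the log2 fold change was -0.79 (edgeR adjusted p = 0.00383), and the difference was -1.25 in libraries B to M and -0.87 in libraries O to S. The log2 CPM of Sox7 minus that of Sox17 moved by 0.12 between the groups, and by 0.25 without hyperoxia replicate 1, both less than its SD of 0.49 in normoxia.

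The markers of vascular endothelium moved in the same samples, in both directions. For comparison, here and with each list below, 10.8% of all genes tested were lower and 11.8% higher. Of 18 such markers listed and tested, 8 fell, 2 rose and 8 did not pass, with a median log2 fold change of -0.64. With hyperoxia replicate 1 left out, 9 fell and 3 rose, the growth factor receptor Kdr at -0.37 (edgeR adjusted p = 0.0402) and the tight junction protein Cldn5 at 0.71 (edgeR adjusted p = 0.0408) being added, both named after their values were seen. Their summed level ran from 6163 to 8466 CPM in normoxia and from 4187 to 7694 CPM in hyperoxia, where hyperoxia replicate 1 stood at 6662 CPM. That library held 3335 CPM of Egfl7, against 525 to 1071 CPM in the other 5, and only 392 CPM of Pecam1. Its mean log2 CPM over the 18 markers was 6.21, below the 6.78 to 7.24 of the other 5 hyperoxia libraries. Ptprb, an endothelial phosphatase, changed by -1.16 (SE 0.13) and Calcrl, the adrenomedullin receptor, by -1.85 (SE 0.24) on the log2 scale. Pecam1, the junction protein, had a log2 fold change of -0.79 (SE 0.42, edgeR adjusted p = 0.198). Egfl7, a secreted endothelial factor, rose by 1.37 (SE 0.33, edgeR adjusted p = 0.00715), and by 0.84 without hyperoxia replicate 1. The other gene that rose, named after its value was seen, was the TGF-beta co-receptor Eng, by 1.02, and by 0.83 without that library.

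Set against the mean log2 CPM of these 18 markers, both genes were still lower in hyperoxia on average. Sox7 minus the markers was -2.27 ± 0.28 (SD, n = 7) in normoxia and -2.71 ± 0.38 (SD, n = 6) in hyperoxia. Sox17 minus the markers was -1.46 ± 0.39 in normoxia and -2.02 ± 0.18 in hyperoxia. The groups overlapped in both measures, and without hyperoxia replicate 1 the shift was -0.33 for Sox7 and -0.58 for Sox17. The marker mean itself was lower by 0.59 on the log2 scale, and its part in the values of Sox7 and Sox17 was not tested. Among markers of lymphatic endothelium, a cell type in which Sox18 is known to act, 0 of 6 fell and 1 rose. That gene was Lyve1, also made by some macrophages, which went from 625.3 ± 148 CPM with normoxia to 5508 ± 1791 CPM with hyperoxia.

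Sox18 lies on chromosome 2 from 181669836 to 181671640 on the minus strand, in 2 exons. It was the scarcest member, with 90 counts over the 7 normoxia libraries and 6 over the 6 hyperoxia libraries. In normoxia its lowest value was 0.279, its median 1.68 and its highest value 12.7 CPM. In hyperoxia its lowest value was 0, its median 0.109 and its highest value 1.51 CPM, and 3 libraries had no count. The normoxia counts were uneven, since 81 of 90 came from replicates 1 to 3, and replicates 6 and 7 had 1 count each. Of the 6 hyperoxia counts, 4 came from hyperoxia replicate 2. The groups overlapped at these low values. The ratio of summed counts, scaled to CPM, was 14.0 with an exact 95% counting interval of 6.21 to 39.3, which leaves out the spread between libraries.

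By an exact two-sided permutation test of the mean CPM, whose smallest possible p is 5.8e-04, Sox18 gave p = 0.0594. Adjusted over the 6 low SOX genes tested in this way it was 0.357. With no filter on low counts, edgeR gave a log2 fold change of -3.64 (SE 0.97, adjusted p = 0.0160), so that whether Sox18 passed depended on the test. The difference in mean log2 CPM was -2.40 in libraries B to M, and -0.22 in libraries O to S, whose normoxia libraries had 1 count each.

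The endothelial members were then set against the epithelial and mesenchymal members within each library, as the difference of their mean log2 CPM. This difference was -0.58 ± 0.57 (SD, n = 7) in normoxia and -1.43 ± 0.45 (SD, n = 6) in hyperoxia, lower by 0.85. The groups overlapped, with normoxia from -1.29 to 0.25 and hyperoxia from -2.14 to -0.86. The mean of the endothelial members moved by -1.34 and that of the other members by -0.49, or by -0.19 without Sox11, the gene that chose the set. Without Sox11 the difference was lower by 1.15 in hyperoxia than in normoxia, at -1.32 ± 0.42 against -0.16 ± 0.58. Over all members, Sox11 included, the shift was -1.24 in libraries B to M and -0.10 in libraries O to S. Without Sox11 it was -1.57 in B to M and -0.36 in O to S. Without Sox18, an alternative chosen after the data were seen, it was 0.73 ± 0.17 in normoxia and 0.13 ± 0.46 in hyperoxia, lower by 0.60, and lower by 0.42 with hyperoxia replicate 1 also left out. Without Sox18 the shift was -0.86 in B to M, which holds hyperoxia replicate 1 at -0.74, and -0.36 in O to S. No test is given for a score over members chosen in this way.

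**Figure D3:**
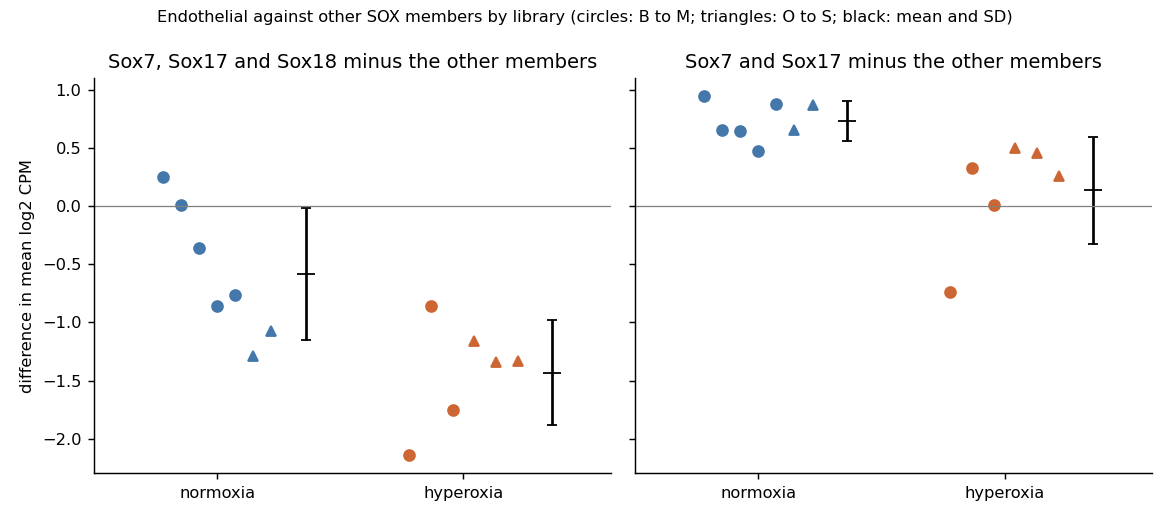
Mean log2 CPM of the endothelial SOX members minus that of the other 7 members in each library, by group, with and without Sox18; bars give the mean and SD, circles are libraries B to M and triangles libraries O to S. With Sox18 the mean is -0.58 in normoxia and -1.43 in hyperoxia, and without it 0.73 and 0.13.

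Genes reported as targets of SOXF factors were read beside Sox7 and Sox17. Of 7 listed and tested, 1 fell, 2 rose and 4 did not pass, where 10.8% of all genes tested were lower and 11.8% higher. Their median log2 fold change was 0.43. Dll4, the arterial Notch ligand, changed by -0.67 (SE 0.18, edgeR adjusted p = 0.0136). Its receptor Notch1 rose by 0.43 (SE 0.13, edgeR adjusted p = 0.0238). The other gene that rose was the vascular guidance receptor Robo4, by 0.79 (edgeR adjusted p = 0.0302), named after its value was seen. With library size alone as the scaling, 0 of the 7 were called higher, and without hyperoxia replicate 1, 3 were, Cldn5 included. Cdh5, the endothelial cadherin, had a mean of 219 ± 19.8 CPM under normoxia and 249 ± 29.4 CPM under hyperoxia (edgeR adjusted p = 0.307). Vcam1, an adhesion molecule, had a mean of 124 ± 11.8 CPM under normoxia and 152 ± 39.0 CPM under hyperoxia (edgeR adjusted p = 0.200). Cdh5 and Cldn5 are also on the list of vascular markers.

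Sox9 was the member that rose. It lies on chromosome 11 from 112782224 to 112787760 on the plus strand, in 3 exons. In normoxia it was uniformly low, with a lowest value of 5.94, a median of 6.72 and a highest value of 7.43 CPM. In hyperoxia its lowest value was 15.1, its median 18.7 and its highest value 32.7 CPM. All 6 hyperoxia libraries were above all 7 normoxia libraries, and the spread was wider in hyperoxia, with a coefficient of variation of 32.4% against 8.42%. Sox9 rose by 1.61 on the log2 scale (SE 0.22, edgeR adjusted p = 8.8e-05), a 3.05-fold higher mean. It changed by 1.595 without hyperoxia replicate 1, and the difference was 1.68 in libraries B to M and 1.27 in libraries O to S.

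Genes of cartilage and of alveolar epithelium were read beside Sox9. Among 12 cartilage genes, 11 were in the table, of which 1 had enough counts to test, 4 had no count in any library (Acan, Col9a2, Matn1 and Comp), and Col9a1 and Matn3 had at most 2 counts in any library, so that whether cartilage genes changed cannot be read at this depth. The tested gene was Hapln1, a link protein of the cartilage matrix, with 10.4 ± 2.53 CPM under normoxia and 5.12 ± 3.97 CPM under hyperoxia (log2 fold change -1.04, edgeR adjusted p = 0.0807). Among 12 markers of alveolar epithelium, 7 fell and 0 rose, with a median log2 fold change of -0.95. Their summed level ran from 13088 to 24223 CPM in normoxia and from 4274 to 7929 CPM in hyperoxia, with no overlap. Lamp3, of lamellar bodies, changed by -1.73 (SE 0.12), the lipid transporter Abca3 by -1.27 (SE 0.15), and the surfactant proteins Sftpc by -2.72 (SE 0.60) and Sftpa1 by -1.69 (SE 0.21), all on the log2 scale. The 5 that did not pass were Sftpb at -0.38 and the type I cell genes Ager at -0.11, Aqp5 at -0.02, Pdpn at 0.07 and Hopx at 0.08. Rtkn2, also of type I cells, passed at -0.95 (edgeR adjusted p = 0.0246). These 6 genes were named after their values were seen. Sox9 minus the mean log2 CPM of the alveolar markers moved from -5.35 ± 0.28 (SD, n = 7) to -2.76 ± 0.90 (SD, n = 6), a shift of 2.59, and of 2.32 without hyperoxia replicate 1.

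Sox2 lies on chromosome 3 from 34650405 to 34652461 on the plus strand, in 1 exon inside the non-coding Sox2ot on the same strand. Its normoxia libraries had a lowest value of 19.4, a median of 24.9 and a highest value of 31.5 CPM. Its hyperoxia libraries had a lowest value of 14.6, a median of 17.3 and a highest value of 29.5 CPM. In hyperoxia, 5 of 6 libraries were below every normoxia library, and hyperoxia replicate 1 at 29.5 CPM was near the top of the normoxia range. The log2 fold change was -0.39 (SE 0.19, 95% interval -0.82 to 0.04, edgeR adjusted p = 0.168). Without hyperoxia replicate 1 it was -0.54 (edgeR adjusted p = 0.0217), so that this library decided whether Sox2 passed.

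The airway epithelial markers that go with Sox2 in the normal lung had their lowest summed level in the same library. It ran from 14597 to 53264 CPM in normoxia and from 3545 to 10344 CPM in 5 hyperoxia libraries, and stood at 244 CPM in hyperoxia replicate 1. Of 10 markers 8 were tested, of which 2 fell and 0 rose, with a median log2 fold change of -0.65. Cyp2f2, a cytochrome P450 of club cells, changed by -2.71 (SE 0.41) and the secretoglobin Scgb1a1 by -2.96 (SE 0.59), while Scgb3a2 had -1.28 (SE 0.51, edgeR adjusted p = 0.0841). Hyperoxia replicate 1 decided the call of Scgb3a2, which without it was -1.01 (SE 0.19, edgeR adjusted p = 8.3e-04). It also decided that of the keratin Krt8, named after its value was seen, which was 1.24 (edgeR adjusted p = 0.131) with it and 1.51 (edgeR adjusted p = 7.0e-04) without it, so that 3 markers fell and 1 rose. Krt5 and Trp63, the defining markers of basal cells, had at most 3 counts in any library. Sox2 minus the mean log2 CPM of the airway markers was -2.89 ± 0.60 in normoxia and -2.06 ± 1.96 in hyperoxia, a shift of 0.84 that came from hyperoxia replicate 1 at 1.93. Without that library the hyperoxia mean was -2.86 ± 0.21 (SD, n = 5), a shift of 0.04. The part of airway cell content in the Sox2 values was not tested.

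**Figure D4:**
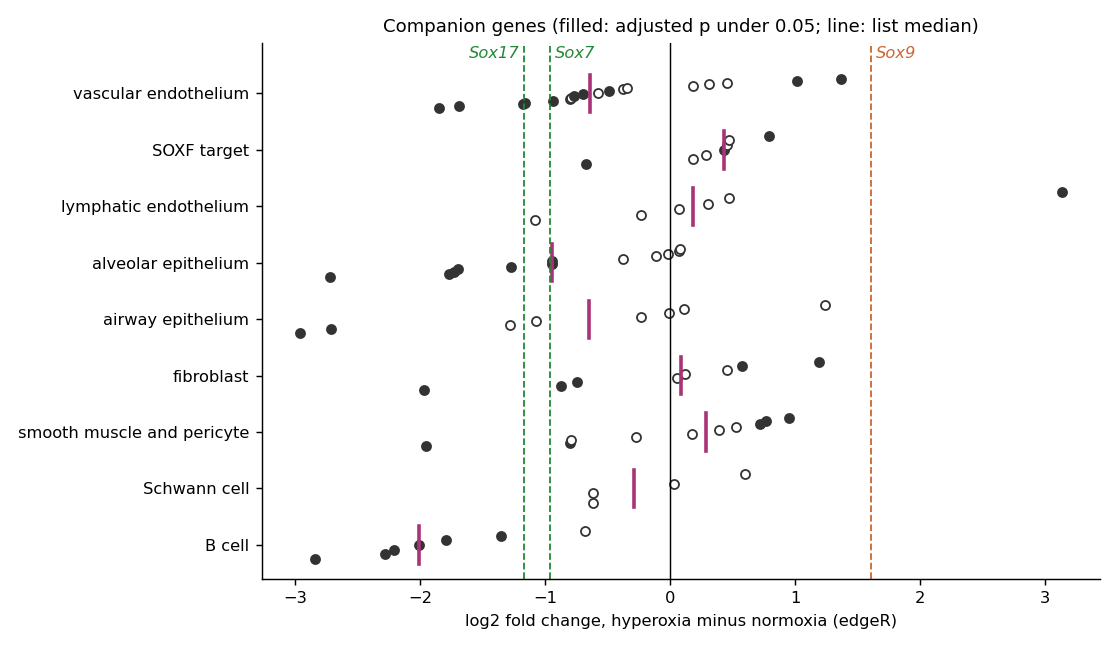
Log2 fold change (hyperoxia minus normoxia) of each tested gene of 9 companion lists; filled points have an edgeR adjusted p under 0.05, upright bars are list medians, and dashed lines mark Sox17, Sox7 and Sox9. The filled points of the alveolar list (7 genes), the B cell list (6 genes) and the airway list (2 genes) all lie below 0. Those of the endothelial and mesenchymal lists lie on both sides except for Lyve1, the single one in the lymphatic list.

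None of the SOXD genes passed the test. Sox5 spans chromosome 6 from 143828425 to 144781977 on the minus strand, and its normoxia libraries ran from 28.7 to 41.0 CPM with a median of 33.9. Its hyperoxia libraries ran from 20.01 to 43.1 CPM with a median of 29.6 and enclosed the normoxia range. The log2 fold change was -0.16 (SE 0.17, 95% interval -0.54 to 0.22, edgeR adjusted p = 0.542). With 1 library left out it ran from -0.27 (without hyperoxia replicate 3) to -0.05 (without hyperoxia replicate 5).

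Sox6, on chromosome 7 from 115470872 to 116038796 on the minus strand, ran from 6.24 to 12.5 CPM (median 9.08) in normoxia. In hyperoxia it ran from 4.38 to 9.65 CPM (median 5.99), with 3 of 6 libraries below the normoxia range. Its log2 fold change was -0.44 (SE 0.25, 95% interval -0.995 to 0.11, edgeR adjusted p = 0.232). It was -0.55 without hyperoxia replicate 1 (edgeR adjusted p = 0.115). The difference was -0.07 in libraries B to M and -0.76 in libraries O to S.

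Sox13, on chromosome 1 from 133382303 to 133424377 on the minus strand, ran from 3.70 to 11.3 CPM (median 8.50) in normoxia. In hyperoxia it ran from 0 to 7.94 CPM (median 7.12), and hyperoxia replicate 1 was the library with 0 counts, where the floor of 3 counts is 1.61 CPM. Its log2 fold change was -0.55 (SE 0.42, 95% interval -1.48 to 0.38, edgeR adjusted p = 0.384), and -0.31 without that library. An interval that includes 0 at these depths does not show that Sox5, Sox6 and Sox13 stayed the same. Sox5 and Sox6 overlap several antisense or intronic genes, and the sources do not say whether strand was used in counting.

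Markers of mesenchymal cells moved in both directions. Of 8 fibroblast genes tested 3 fell and 2 rose, with a median of 0.09. Pdgfra, the alveolar fibroblast receptor, rose by 1.19 (SE 0.16), and Col3a1 by 0.57 (SE 0.17, edgeR adjusted p = 0.0215). Wnt2 changed by -0.87 (SE 0.22), and Col1a2 had 0.12 (SE 0.14, edgeR adjusted p = 0.594). Of 10 smooth muscle and pericyte genes 2 fell and 3 rose, with a median of 0.28, among them the muscle filament Des at 0.96 (SE 0.17), the actin Acta2 at 0.77 (SE 0.17) and the pericyte gene Rgs5 at -1.95 (SE 0.38). Without hyperoxia replicate 1, 1 fell and 2 rose, since Cox4i2 (edgeR adjusted p = 0.0571) and Cnn1 (edgeR adjusted p = 0.0630), named after their values were seen, no longer passed. Rgs5 averaged 1.42 CPM in hyperoxia, within the detection floors of 0.656 to 1.84 CPM. Pdgfrb at -0.27, Notch3 at -0.79 and Cspg4 at 0.39, named after their values were seen, did not pass (edgeR adjusted p = 0.757, 0.165 and 0.446). Schwann cells carry Sox10 as their defining factor, and 0 of 4 tested markers passed, with the neuregulin receptor Erbb3 at -0.62 (edgeR adjusted p = 0.283) and the myelin protein Mbp at 0.03 (edgeR adjusted p = 0.937).

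B cell precursors express Sox4, so B cell markers were read beside it. Of 7 tested 6 fell and 0 rose, with a median log2 fold change of -2.01. Without hyperoxia replicate 1 all 7 fell, the lectin Cd22, named after its value was seen, going from -0.68 (edgeR adjusted p = 0.0839) to -1.03 (edgeR adjusted p = 3.8e-04). The B cell receptor chain Cd79b changed by -2.28 (SE 0.32), the heavy chain Ighm by -2.21 (SE 0.32) and Ms4a1 by -1.36 (SE 0.26), all on the log2 scale. Their summed level ran from 261 to 315 CPM in normoxia and from 59.4 to 118 CPM in hyperoxia, where hyperoxia replicate 1, the library with the most Sox4, was the highest. The part of B cells in the fall of Sox4 was not tested.

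The other 10 SOX genes of the table were scarce. Sox3, Sox14 and Sox15 had no count in any library, and Sox1, Sox10 and Sry had at most 3 counts in any library. Sox12, the third SOXC gene, was the 1 that could be tested by the model. Its mean was 10.4 ± 3.40 CPM in the 7 normoxia libraries and 7.74 ± 4.59 CPM in the 6 hyperoxia libraries, with a log2 fold change of -0.45 (SE 0.33, edgeR adjusted p = 0.358). It was -0.77 once hyperoxia replicate 1 was left out (edgeR adjusted p = 0.0486). Sox21, a SOXB2 gene, had a mean of 2.99 ± 1.70 CPM under normoxia and 1.70 ± 1.34 CPM under hyperoxia (exact permutation p = 0.159, adjusted 0.476 over 6 genes). Sox1, Sox8, Sox10 and Sox30 gave exact permutation p-values of 0.304 to 0.902.

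For each tested member, the genes with the most similar pattern were taken as those with the highest Pearson correlation of log2 CPM deviations from the group means over the 13 libraries, which share depth and the odd hyperoxia replicate 1. Each is a top value out of the 12496 genes tested, and how high such values reach by chance was not worked out. Sox11 was most like Primpol (r = 0.84), Lrrc18 (0.83) and Taf6 (0.83). Their rank correlations with Sox11 were lower, at 0.69, 0.62 and 0.70, and Primpol and Lrrc18 averaged only 4.28 and 6.24 CPM. Sox4 was most like Taok3 (r = 0.95), Tpm3-rs7 (0.95) and Setd1b (0.93), and Sox2 most like Enox2 (0.95), Zfp664 (0.95) and Dnmt3a (0.95). For Sox17 they were 2610008E11Rik (r = 0.87), Fndc1 (0.85) and Atrip (0.85), and for Sox7 they were Ghr (0.94), Hnrnpf (0.93) and Dse (0.93). Sox9 was most like Ube2d3 (r = 0.90), Med12l (0.89) and Hnrnpa0 (0.88). Among the SOXD genes, Sox5 was most like Tnrc6a (r = 0.83), Sox6 most like Tspan33 (0.91) and Sox13 most like Fundc1 (0.96). Without hyperoxia replicate 1 the correlation of Sox4 with Taok3 was 0.88, that of Sox7 with Ghr 0.84 and that of Sox13 with Fundc1 0.83.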

How the data were processed

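Lung RNA was read by Quant-seq. Per the labels and the methods, reads were pseudoaligned by the authors using kallisto within BioJupies, and the submitters' processing notes name mm10 and limma 3.54.2. The authors deposited whole-number counts per gene symbol, and a second table of log10 values, which are log10 of CPM plus 1 to within 4.4e-16. All 13 columns of each table were mapped to samples, and whether counting used strand is not given in the sources used here. Groups and replicate numbers were taken from the labels. The edgeR p-values weigh the group difference against the spread between libraries, and the exact p-values rank it among rearrangements of the libraries. No 2 libraries of a group were alike within sampling noise.

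Counts were scaled by TMM, filtered with filterByExpr (12496 genes left) and tested with edgeR 4.0.16 (glmQLFit, glmQLFTest) in R 4.3.3, hyperoxia against normoxia, without covariates, with Benjamini-Hochberg adjustment over all genes tested and a threshold of 0.05. CPM are TMM-scaled, and log2 CPM have a prior count of 2. SOX genes that the filter left out and that had a count in at least 3 libraries were given an exact two-sided permutation test over all 1716 arrangements of the 13 libraries. The scripts were tested on simulated data. Coordinates and transcript lengths are from GENCODE (GRCm38), matched by symbol, and promoter sequences, which had entries for 6 of the 10 members, from RefSeq (GRCm38.p6).

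The members and lists were chosen with earlier results of these data known. Named genes are the 10 members, the rest of the family that passed the filter, the 2 genes of each list with the smallest adjusted p, the 2 with the highest mean CPM, any under 4 counts in every library, the low SOX genes given the exact test, and the 3 most correlated genes of each tested member; some of these are not reported here, and Tubb3 and Dcx and those so marked were named after their values were seen. Alternatives were DESeq2 1.42.0, limma 3.58.1 (with voom, or on the log10 table turned to log2), scaling by library size alone or by DESeq2 size factors, no filter or a minimum of 10 counts in all libraries, a replicate block, a letter-set term, a prior count of 0.5, and leaving out each library in turn. The values of relative levels and of list medians without hyperoxia replicate 1 were added after the data were seen.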

Additional observations from a re-analysis of the deposited data

Results flagged for a closer look

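Of 24 groups of samples examined, 5 had a single sample far from the rest by Dixon's criterion, where chance gives about 1 in 20. Sox2 stood at 29.5 CPM in hyperoxia replicate 1 against 14.6 to 18.4 CPM in the other 5 hyperoxia libraries. Sox17 stood at 18.8 CPM in the same library against 29.5 to 34.1 CPM in the others. Sox13 stood at 3.70 CPM in normoxia replicate 4 against 8.21 to 11.3 CPM in the other 6 normoxia libraries. Sox18 stood at 1.51 CPM in hyperoxia replicate 2 against 0 to 0.269 CPM in the others, a matter of 4 counts against at most 1. The total count of normoxia replicate 5 was 1607111, against 2696280 to 3387736 in the other normoxia libraries.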

How the results depend on the processing

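Over 23 alternatives, the direction of the tested members was the same in 206 of 206 values and the call in 202. Replicate numbers did not pair the samples, since 1 of 6 pairs had a correlation of deviations over 0.1 and 0 samples correlated best with their own number. With the replicate block, on 6 libraries of each group, 1291 genes passed in place of 2819 and 3 members in place of 5 (Sox11 counted), with Sox4 (edgeR adjusted p = 0.0577) and Sox7 (edgeR adjusted p = 0.0807) no longer passing. With 1 library left out, 2305 to 3633 genes and 5 to 6 members passed, and the endothelial minus other difference ran from -0.97 to -0.71. Other settings gave -1.15 to -0.60 for it. Sox2 passed without hyperoxia replicate 1 and without the 2 shallowest libraries, the second chosen after the data were seen (log2 fold change -0.58, edgeR adjusted p = 0.0198). Of the genes that passed, 52.3% were higher, against 42.7% when only library size set the scaling and 38.8% when limma used the authors' log table, settings whose median log2 fold change over all genes was -0.10 and -0.16. Leaving out hyperoxia replicate 1, the lists had 1 airway gene higher, 1 smooth muscle and pericyte gene lower and 1 other SOX gene lower. DESeq2 gave 4 airway genes and 1 lymphatic gene lower, and library size alone 1 cartilage gene lower and 0 SOXF targets higher. The cause of these moves was not tested. Depth limits Sox18, with 96 counts in all, and Sox13.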
